A study of Homo sapiens with 8 samples.

Results

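MYC, MAX, MXD1, MXD3, MXD4, MXI1, MNT, MGA and MLX, the network of paired transcription factors centred on MAX, were followed by RNA-seq in the WSU-DLCL2 cell line, which derives from a human diffuse large B-cell lymphoma. They are 9 of 60592 gene rows in each library, taken by gene symbol from a list of the network's members, and all 9 were among the 12063 genes tested. Cells overexpressing FDX1 (FDX1-OE) and control cells, whose genotype is labelled WT, received 15 nM elesclomol (ES) or DMSO for 48 h. The 4 groups were FDX1-OE ES, control ES, FDX1-OE DMSO and control DMSO, with 2 libraries each, 8 in all. FDX1 is the mitochondrial electron carrier ferredoxin, elesclomol is a drug that brings copper into cells and mitochondria, and DMSO is the solvent. The labels do not say how FDX1 was overexpressed or how many clones were used. They do not state separate cultures either, so the p-values measure the spread between these samples only, which may be technical.

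MYC binds DNA only as a pair with MAX, and the pair sits on E-box sequences near gene starts, where it raises the output of genes for ribosome assembly, nucleotide synthesis and growth. MXD1, MXD3, MXD4, MXI1 and MNT also pair with MAX and bring the SIN3 and NCOR corepressors to the same kind of site, while MGA pairs with MAX inside a Polycomb-type repressor complex. MLX stands beside MAX in a parallel arm and pairs with MondoA (the MLXIP gene), a sensor of sugar phosphates, and with some MXD proteins. In germinal-centre lymphomas MYC is a recurrent oncogene, often placed under immunoglobulin control by a translocation. RNA levels were measured here, not protein, binding or translocation.

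FDX1 itself measured 60.7 and 59.4 FPKM in FDX1-OE ES, 9.88 and 10.03 FPKM in control ES, 59.8 and 55.97 FPKM in FDX1-OE DMSO, and 10.8 and 10.4 FPKM in control DMSO. Every FDX1-OE library lay above every control library. All 7 B-cell markers examined reached 1 FPKM in every group, and none of the 6 T and NK cell, 4 myeloid and 4 epithelial and stromal markers did, with sums per library of at most 0.384, 0.638 and 0.809 FPKM for these 3 lists. The summed FPKM of a library was 403024 to 408018 in FDX1-OE ES and 445716 to 451027 in the other groups. The share of it held by mRNAs of the mitochondrial genome was 14.7% and 11.9% in FDX1-OE ES, 17.5% and 16.9% in control ES, and 17.4% to 17.6% in the DMSO libraries. The part of these shifts in the results on the network was not tested. FPKM are relative within a library: in bulk RNA, fewer cells of a type and less RNA per cell cannot be told apart.

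**Figure D1:**
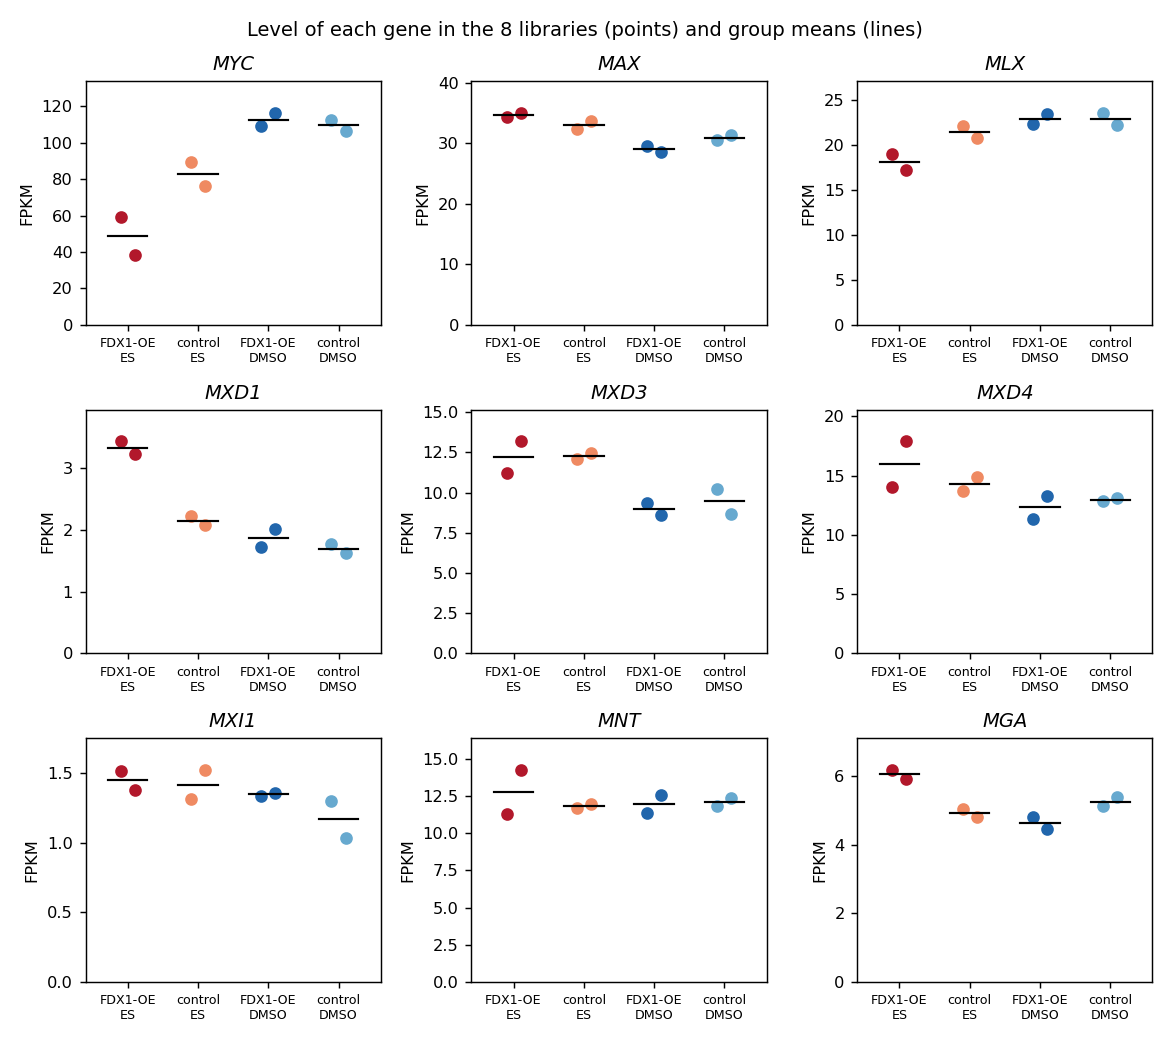
Level of each gene in FPKM (vertical axis, linear, from 0) in the 8 libraries, with points for libraries and lines for the means of the 4 groups along the horizontal axis. MYC lay at 59.2 and 38.5 FPKM in FDX1-OE ES, below the 6 other libraries, while MXD1 lay at 3.44 and 3.23 FPKM there, above them.

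In FPKM, which are scaled to gene length, MYC was the most abundant member in every group and MXI1 the least. In control DMSO the order was MYC (109.8 ± 4.26 FPKM, SD, n = 2), MAX (30.9 ± 0.611), MLX (22.9 ± 0.961), MXD4 (13.0 ± 0.193), MNT (12.1 ± 0.390), MXD3 (9.47 ± 1.11), MGA (5.25 ± 0.185), MXD1 (1.70 ± 0.0986) and MXI1 (1.17 ± 0.185). No neighbours in that order overlapped between libraries. MYC stood above 95.8% of the genes tested there, and MXI1 above 12.6%. The members of the MXD family thus spanned a wide range, with MXD4 and MXD3 carrying most of the family's FPKM and MXD1 and MXI1 little. In FDX1-OE ES the middle of the order closed up: MLX overlapped MXD4, MXD4 overlapped MNT and MNT overlapped MXD3. In control ES MXD3 stood just above MNT, with no overlap between neighbours, and in FDX1-OE DMSO only MXD4 and MNT overlapped.

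The promoters of MXD4, MNT and MLX are shown because they carry the canonical E-box CACGTG, the sequence that MAX pairs recognise, in the stretch of 250 bases before the start site. RefSeq start sites on GRCh38.p14 gave 13 such stretches for 8 members. MYC had no such stretch there and was not searched. CACGTG was searched on the strand of the gene, and it reads the same on the other strand. It occurred in 3 of the 13, and in 6.34% of all 35116 stretches of that length in the RefSeq table. Each is written 5′ to 3′ on the strand of the gene and ends at the base before the start site, with CACGTG in capitals. MXD4 lies on the minus strand (chr4:2262110-2262359), with the motif beginning 238 bases before the start. MNT also lies on the minus strand (chr17:2401061-2401310), with the motif 193 bases before the start, and MLX lies on the plus strand (chr17:42566850-42567099), with the motif 50 bases before it.
MXD4: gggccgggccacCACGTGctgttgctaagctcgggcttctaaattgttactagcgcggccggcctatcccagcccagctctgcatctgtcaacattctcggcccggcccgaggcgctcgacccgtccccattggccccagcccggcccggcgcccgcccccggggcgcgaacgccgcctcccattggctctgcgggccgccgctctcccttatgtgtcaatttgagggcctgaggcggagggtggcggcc
MNT: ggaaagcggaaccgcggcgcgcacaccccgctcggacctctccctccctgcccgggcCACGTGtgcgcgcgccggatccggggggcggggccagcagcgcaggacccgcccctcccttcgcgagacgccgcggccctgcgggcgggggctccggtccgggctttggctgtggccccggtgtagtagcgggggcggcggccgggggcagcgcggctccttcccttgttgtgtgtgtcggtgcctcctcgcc
MLX: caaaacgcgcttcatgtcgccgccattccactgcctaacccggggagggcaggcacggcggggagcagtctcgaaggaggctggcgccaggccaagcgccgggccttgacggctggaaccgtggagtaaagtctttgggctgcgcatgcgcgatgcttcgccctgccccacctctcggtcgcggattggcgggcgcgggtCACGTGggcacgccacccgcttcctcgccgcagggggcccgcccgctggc
A match is a description of the letters and not evidence of binding.

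The first comparison asked what ES did in FDX1-OE cells. In FDX1-OE ES against FDX1-OE DMSO, 7 of the 9 members were called by limma at a Benjamini-Hochberg adjusted p below 0.05: MAX, MXD1, MXD3, MXD4 and MGA were higher, and MYC and MLX were lower. This share is to be read against the 60.8% of all genes tested that were called in that comparison, 47.1% higher and 13.7% lower. The median log2 fold change over all genes was 0.25 and the median of the 9 members was also 0.25. The number of members called was therefore near the background, and the members differed mainly in where each stood relative to it.

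MYC, the activating partner, had 59.2 and 38.5 FPKM in FDX1-OE ES, against 109.1 and 116.5 FPKM in FDX1-OE DMSO. Every FDX1-OE ES library lay well below every FDX1-OE DMSO library, although the ES libraries differed from each other more than the DMSO libraries did. On the log2(FPKM + 1) scale MYC fell by 1.22 (SE 0.17, limma, adjusted p 0.000518), and the mean in FPKM was 0.433 times that of FDX1-OE DMSO. Only 0.332% of the genes tested had a lower log2 fold change. The fall held in all 17 alternative analyses, at -1.53 to -0.92 with an adjusted p of 6.53e-05 to 0.00916.

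MAX, the shared partner, had 34.4 and 35.0 FPKM in FDX1-OE ES, against 29.6 and 28.5 FPKM in FDX1-OE DMSO. The groups did not overlap, and both libraries of each lay close together. Its log2 fold change was 0.25 (SE 0.06, adjusted p 0.00806), which is the median of all genes, and with libraries brought to a common median ratio it was -0.03. The direction for MAX thus turned with the scaling. MYC, by contrast, stood 1.47 below the median gene on the log2 scale.

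MXD1, a repressor that many cells induce as they stop dividing and differentiate, had 3.44 and 3.23 FPKM in FDX1-OE ES, against 1.72 and 2.02 FPKM in FDX1-OE DMSO. The groups were clearly apart, at a level that was low throughout. Its log2 fold change was 0.60 (SE 0.10, adjusted p 0.00153) and the ratio of mean FPKM was 1.78. It kept its call under median-ratio scaling and lost it under quantile normalisation, where the fold change was 0.16 (adjusted p 0.251, the highest of 16 alternatives, which went down to 0.000492).

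MXD3, a family member often found in cycling cells, had 11.2 and 13.2 FPKM in FDX1-OE ES, against 9.33 and 8.60 FPKM in FDX1-OE DMSO. The groups did not overlap, and the log2 fold change was 0.40 (SE 0.11, adjusted p 0.0109). MXD4 had 14.1 and 17.9 FPKM in FDX1-OE ES, against 11.3 and 13.3 FPKM in FDX1-OE DMSO, with a log2 fold change of 0.35 (SE 0.12, adjusted p 0.0343). Its libraries did not overlap either, but the lower FDX1-OE ES library was close to the higher FDX1-OE DMSO one. The MXD4 call was lost in 9 of 17 alternatives, and MXD3 and MXD4 both lost theirs under median-ratio scaling (0.14 and 0.08) and quantile normalisation (0.13 and 0.11). By the GENCODE annotation 40.4% of the exon bases of MXD3 are shared with other genes, mainly RAB24 and PRELID1, and the handling of strands is not given in the sources used here, so its level is uncertain. RAB24 had a log2 fold change of 0.03 (limma, adjusted p 0.885) and PRELID1 of -0.13 (adjusted p 0.143) in the same comparison.

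MXI1 and MNT were not called. MXI1 had 1.52 and 1.38 FPKM in FDX1-OE ES and 1.34 and 1.36 FPKM in FDX1-OE DMSO, nearly touching, with a log2 fold change of 0.06 (95% interval -0.20 to 0.32, limma, adjusted p 0.666). MNT, the widely expressed MAX partner thought to act opposite MYC in most tissues, had 11.3 and 14.3 FPKM in FDX1-OE ES and 11.3 and 12.6 FPKM in FDX1-OE DMSO. The MNT groups overlapped, and its log2 fold change was 0.08 (95% interval -0.17 to 0.33, adjusted p 0.533). The sign of both turned under median-ratio scaling, to -0.11 for MXI1 and -0.18 for MNT. Under quantile normalisation MXI1 was called lower (-0.38, adjusted p 0.0310, the lowest of 16 alternatives, which went up to 0.907). Without FDX1-OE ES replicate 1 MNT was called higher (0.24, adjusted p 0.0382, the lowest of 17 alternatives, which went up to 0.944).

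MGA, the scaffold of a MAX-containing Polycomb complex, had 6.18 and 5.91 FPKM in FDX1-OE ES, against 4.80 and 4.44 FPKM in FDX1-OE DMSO. The groups were apart, and the log2 fold change was 0.33 (SE 0.09, adjusted p 0.0114), which became -0.05 under quantile normalisation. MLX had 19.0 and 17.2 FPKM in FDX1-OE ES, against 22.3 and 23.4 FPKM in FDX1-OE DMSO, with no overlap. MLX fell by 0.32 (SE 0.08, adjusted p 0.00732), 0.57 below the median gene, and 11.7% of genes had a lower fold change. It lost its call in 2 of 17 alternatives: when all libraries were brought to the same FPKM total (-0.18, adjusted p 0.0556) and without FDX1-OE DMSO replicate 2 (-0.29, adjusted p 0.0565). In the others the adjusted p went down to 0.000451. PSMC3IP, on the opposite strand, shares sequence with MLX, 18.1% of whose exon bases other genes cover, so reads of either could count for both. PSMC3IP measured 21.4 and 28.4 FPKM in FDX1-OE ES, against 12.6 and 10.8 FPKM in FDX1-OE DMSO, a log2 fold change of 1.02 (adjusted p 0.000344), opposite in direction to MLX.

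Leaving out FDX1-OE DMSO replicate 2 lowered the number of members called in this comparison to 3, with MYC, MXD1 and MXD4 keeping their calls. Any other library left out gave 6 to 8.

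**Figure D2:**
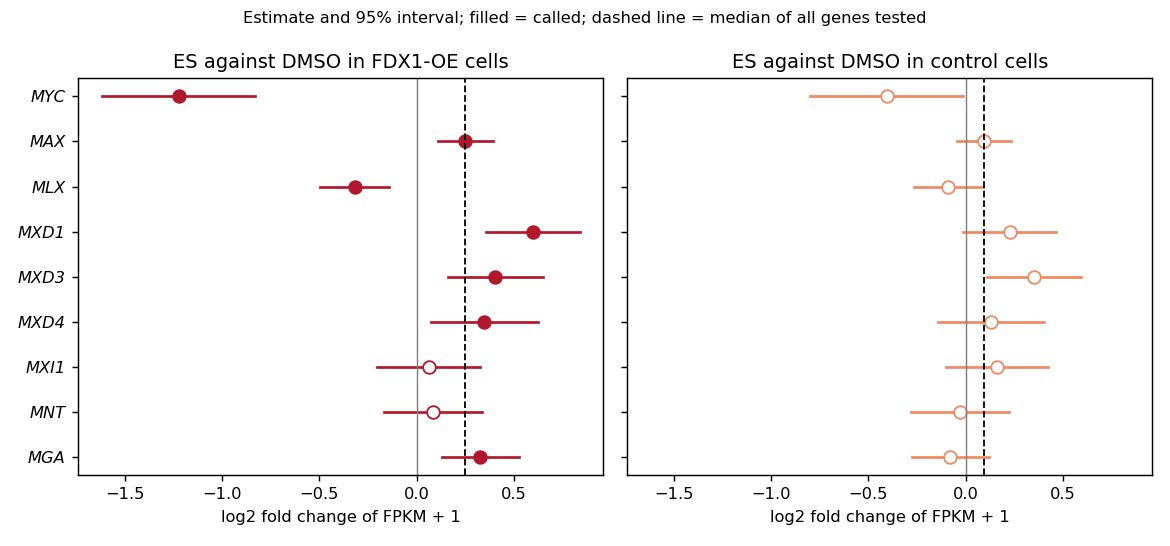
Log2 fold change of FPKM + 1 for ES against DMSO (horizontal axis) for each member, in FDX1-OE cells (left) and control cells (right). Points are limma estimates, bars 95% intervals, filled points called genes, and the dashed line the median of all genes tested (0.25 on the left and 0.09 on the right). MYC is far to the left of that line in FDX1-OE cells, and no point is filled in control cells.

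**Figure D3:**
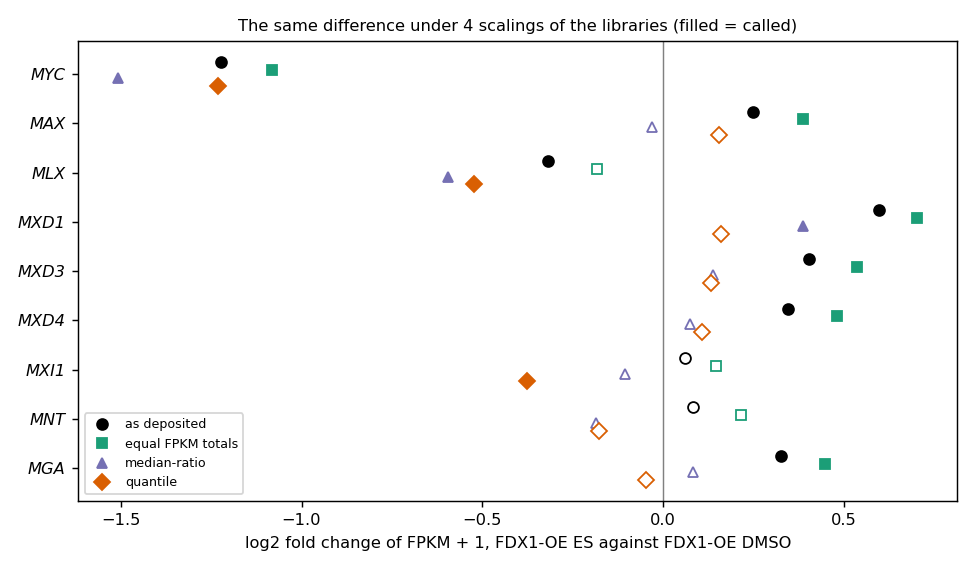
Log2 fold change of FPKM + 1 between FDX1-OE ES and FDX1-OE DMSO (horizontal axis) for each member under 4 scalings of the libraries, with filled symbols for called genes. MYC stays filled on the negative side under all 4, while MAX, MXI1, MNT and MGA change side.

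In control cells none of the 9 members was called between control ES and control DMSO by limma, against 7.74% of all genes tested (6.74% higher and 1% lower). At an unadjusted p below 0.05 there were 2 members, MYC and MXD3, and 3305 genes in all. MYC had 89.7 and 76.1 FPKM in control ES, against 112.8 and 106.8 FPKM in control DMSO. Both ES libraries lay below both DMSO libraries. The log2 fold change was -0.41 (95% interval -0.80 to -0.01, adjusted p 0.171), and 1.14% of genes had a lower one. The main fit took 1 estimate of spread per gene over all 4 groups. The median absolute log2 difference between replicates was 0.165 in FDX1-OE ES and 0.0876 in control ES. In FDX1-OE DMSO it was 0.0750 and in control DMSO 0.0753. The part of this unequal spread in the calls was not tested. With the spread estimated from the control ES and control DMSO libraries alone, MYC was called (limma, adjusted p 0.0360), as it was with library weights. It was also called without FDX1-OE ES replicate 1 and without FDX1-OE ES replicate 2. Over all 17 alternatives its adjusted p was 0.0185 to 0.560.

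MXD3 was the other member with an unadjusted p below 0.05. It had 12.1 and 12.5 FPKM in control ES, against 10.3 and 8.68 FPKM in control DMSO, without overlap, and a log2 fold change of 0.35 (adjusted p 0.0813). MXD1 had 2.23 and 2.08 FPKM in control ES, against 1.77 and 1.63 FPKM in control DMSO, a log2 fold change of 0.23 (adjusted p 0.203). The MXD1 libraries were also apart, by a smaller step than in FDX1-OE cells. MAX, MXD4, MXI1, MGA and MLX did not overlap between control ES and control DMSO either, while MNT did. Lack of overlap therefore does not set MYC, MXD3 or MXD1 off from most other members. For MGA (-0.08) and MLX (-0.09) the log2 fold changes were near 0, with adjusted p of 0.577 and 0.472. The number of members called was 2 without either FDX1-OE ES library and 0 without any other.

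FDX1 overexpression was compared under ES next. Against control ES, 4 of the 9 members were called in FDX1-OE ES, MXD1 and MGA higher and MYC and MLX lower, against 41.5% of all genes tested (31.1% higher and 10.4% lower). These FDX1-OE ES libraries also stood in the comparison with FDX1-OE DMSO, so the values of both are not independent. MYC, at 59.2 and 38.5 FPKM in FDX1-OE ES and 89.7 and 76.1 FPKM in control ES, fell by 0.78 on the log2 scale (SE 0.17, adjusted p 0.00877). The mean was 0.589 times that of control ES, and the groups did not overlap. That call was lost without control ES replicate 1 (adjusted p 0.0676) and with no filter on low values (0.0575), and the lowest adjusted p among the alternatives was 0.000546. Without FDX1-OE ES replicate 1 the change was -1.08, and without replicate 2 it was -0.47.

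MXD1 had 3.44 and 3.23 FPKM in FDX1-OE ES, against 2.23 and 2.08 FPKM in control ES, a log2 fold change of 0.46 (limma, adjusted p 0.0100). That call was lost in 3 of 16 alternatives: quantile normalisation (0.19, adjusted p 0.225), library weights (0.0503) and without control ES replicate 2 (0.0539), and the lowest adjusted p was 0.00289. MGA had 6.18 and 5.91 FPKM in FDX1-OE ES and 5.03 and 4.79 FPKM in control ES, a log2 fold change of 0.25 (adjusted p 0.0456). MLX had 19.0 and 17.2 FPKM in FDX1-OE ES and 22.1 and 20.7 FPKM in control ES, a log2 fold change of -0.23 (adjusted p 0.0421). All 3 genes were apart between the groups, but the calls of MGA and MLX were close to the threshold: MGA lost its call in 13 and MLX in 11 of 17 alternatives. MAX was not called by limma, at 0.07 (95% interval -0.07 to 0.21, adjusted p 0.376), although its groups did not overlap either. The number of members called was 2 without any single DMSO library, 1 without either control ES library, 5 without FDX1-OE ES replicate 1 and 3 without FDX1-OE ES replicate 2.

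In DMSO, FDX1 overexpression left no call in the network. None of the 9 members was called by limma between FDX1-OE DMSO and control DMSO, and none had an unadjusted p below 0.05, against 0.00829% of all genes called (FDX1 alone) and 420 genes at that unadjusted p. MYC had 109.1 and 116.5 FPKM in FDX1-OE DMSO and 112.8 and 106.8 FPKM in control DMSO. The groups overlapped, with a log2 fold change of 0.04 (95% interval -0.35 to 0.43, adjusted p 0.999). The sign turned to 0.00 or below without control DMSO replicate 2 or FDX1-OE DMSO replicate 2. MGA, which had 4.80 and 4.44 FPKM in FDX1-OE DMSO and 5.12 and 5.38 FPKM in control DMSO, did not overlap. Its log2 fold change was -0.15 (95% interval -0.35 to 0.04, adjusted p 0.999). MAX, lower in FDX1-OE DMSO, and MXI1, higher there, did not overlap between these groups either. Lack of overlap therefore does not set MGA off from them.

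Whether the ES effect itself differed between FDX1-OE and control cells was tested as an interaction. MYC was the one member called, with its ES effect 0.82 lower on the log2 scale in FDX1-OE cells than in control cells (interaction -0.82, SE 0.24, limma, adjusted p 0.0493), against 19% of all genes tested (13.9% higher and 5.06% lower). That call was lost in 10 of 16 alternatives, whose adjusted p ran from 0.00231 to 0.181, and it was lost when any 1 of the 4 DMSO or 2 control ES libraries was left out. Without FDX1-OE ES replicate 1 the estimate was -1.12, and without FDX1-OE ES replicate 2 it was -0.51. MGA missed the threshold by a little, at 0.41 (adjusted p 0.0511). The other estimates were 0.37 for MXD1 (adjusted p 0.110), -0.23 for MLX (0.167) and 0.16 for MAX (0.228). For these 4 genes a difference in the ES effect between FDX1-OE and control cells did not pass the test.

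The balance of the network combines these levels. The ratio of MYC to MAX in FPKM was 1.72 and 1.10 in FDX1-OE ES, 2.78 and 2.26 in control ES, 3.69 and 4.09 in FDX1-OE DMSO, and 3.71 and 3.41 in control DMSO. The FDX1-OE ES libraries were lowest, the control ES libraries came between, and the DMSO groups overlapped at the top. A ratio within a library does not depend on any factor that scales the whole library. The summed FPKM of MXD1, MXD3, MXD4 and MXI1 was 30.2 and 35.7 in FDX1-OE ES, 29.3 and 31.0 in control ES, 23.7 and 25.3 in FDX1-OE DMSO, and 26.2 and 24.5 in control DMSO. Both ES groups lay above both DMSO groups and overlapped each other. MYC held 36.9% and 26.2% of the summed FPKM of the 9 genes in FDX1-OE ES, 47.2% and 42.7% in control ES, 54.3% and 55.3% in FDX1-OE DMSO, and 53.7% and 52.7% in control DMSO. These sums and ratios are descriptions and were given no test.

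**Figure D4:**
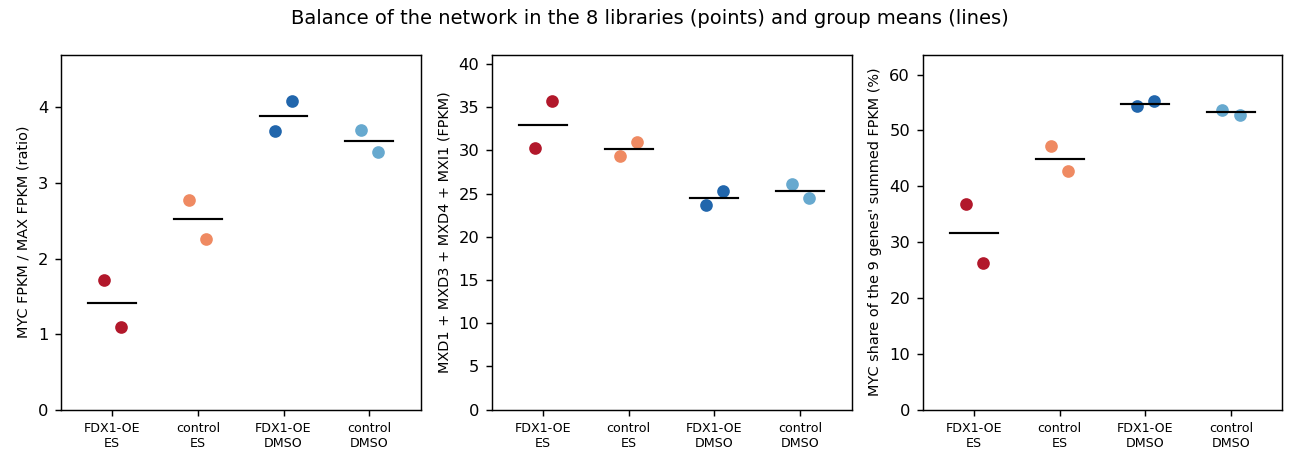
Ratio of MYC to MAX (left), summed FPKM of the MXD family with MXI1 (middle) and MYC share of the summed FPKM of the 9 genes in percent (right), in the 8 libraries (points) with group means (lines). The FDX1-OE ES libraries have the lowest ratio and the lowest MYC share.

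Genes known to be raised by MYC, a list weighted to ribosome assembly, nucleotide synthesis and chaperones, were lower in FDX1-OE ES. Of 65 tested, 53 were lower and 2 higher than in FDX1-OE DMSO, against 13.7% lower and 47.1% higher among all genes tested. The median log2 fold change of the list was -0.54, and that of all genes was 0.25. NOP16, a nucleolar protein, had 34.2 and 29.9 FPKM in FDX1-OE ES, against 88.99 and 87.2 FPKM in FDX1-OE DMSO. NOP16 thus fell in both libraries, by 1.43 on the log2 scale (adjusted p 9.61e-06). The phosphatase gene DUSP2 (-1.56), the ribosome assembly factor gene IMP4 (-0.81) and the mitochondrial chaperonin gene HSPE1 (-1.21) also fell. PLK4 (0.40), which drives centriole duplication, and UNG (0.31), a DNA repair glycosylase, were the 2 that rose, and they are named because of their direction. In control ES against control DMSO, 6 of the 65 were lower and none higher, with a median of -0.19 beside 0.09 for all genes. Among all genes tested, 1% were lower and 6.74% higher there. The 6 were DUSP2, MYBBP1A, NOP16, NOP56, PA2G4 and NCL, and their number moved between 0 with no filter on low values and 29 with library weights. It was 25 without either FDX1-OE ES library and 0 or 1 without any other. Between FDX1-OE ES and control ES 47 were lower and 4 higher, beside 10.4% and 31.1% of all genes. In the interaction 31 were lower and 2 higher, beside 5.06% and 13.9% of all genes, and none was called in DMSO. The interaction count was 11 to 20 lower without any 1 of the control or FDX1-OE DMSO libraries, and 17 lower with no filter. The number lower between FDX1-OE ES and FDX1-OE DMSO was 47 to 60 over the 3 other scalings.

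Genes known to be lowered by MYC were mostly too low to test: 8 of 15 passed the filter, and CDKN1A passed only through the FDX1-OE ES libraries. Of the other 7, 6 were higher in FDX1-OE ES than in FDX1-OE DMSO, where 47.1% of all genes tested were higher and the median gene stood at 0.25. CDKN1B, a cell-cycle inhibitor gene, had a log2 fold change of 0.61. CEBPA, a myeloid transcription factor gene, had 1.02 and FOXO3, a stress-responsive transcription factor gene, had 0.58. Both CEBPA and FOXO3 were low, with ratios of mean FPKM of 3.50 and 1.83 that the log2(FPKM + 1) scale understates. CDKN1A, a cell-cycle inhibitor gene that p53 also induces, had 5.47 and 7.06 FPKM in FDX1-OE ES, 0.933 and 0.720 FPKM in control ES, 0.381 and 0.434 FPKM in FDX1-OE DMSO, and 0.225 and 0.189 FPKM in control DMSO. CDKN1A was highest in FDX1-OE ES and below 1 FPKM in the other groups, so its calls are not counted here. Of the 7 without CDKN1A, 4 were higher between FDX1-OE ES and control ES, where 31.1% of all genes were. In the interaction 2 were higher, beside 13.9% of all genes, and between control ES and control DMSO none, beside 6.74%. None of the 7 was lower in any comparison of the main fit. Without FDX1-OE ES replicate 1 this no longer held for FDX1-OE ES against FDX1-OE DMSO or against control ES. Counting CDKN1A, the 7 higher between FDX1-OE ES and FDX1-OE DMSO became 4 under median-ratio scaling and 3 under quantile normalisation. They became 2 with a filter at 5 FPKM and 9 with no filter on low values. The number also fell with some libraries left out, and CDKN1A was not tested with an FDX1-OE ES library left out.

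**Figure D5:**
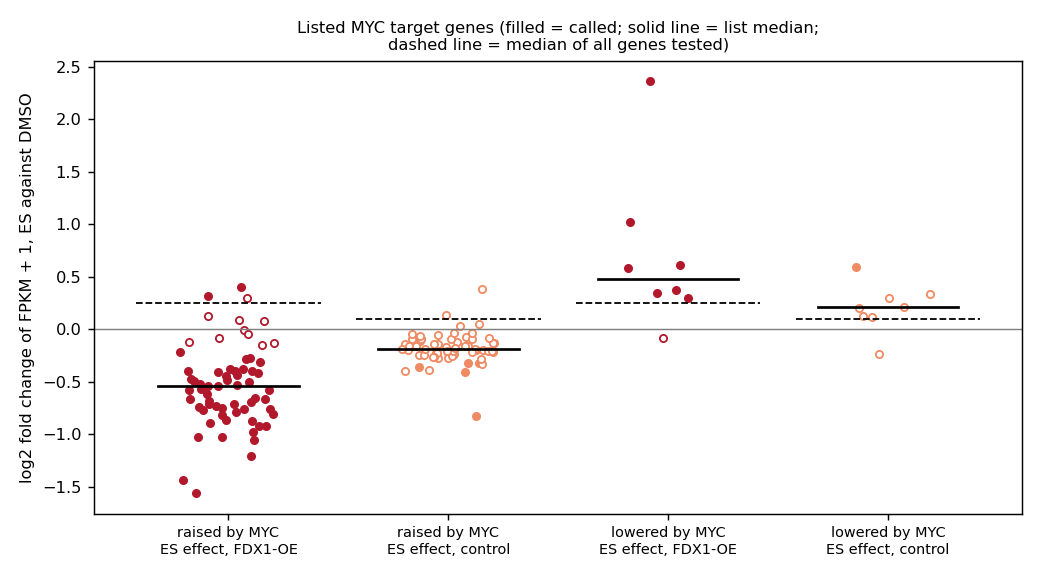
Log2 fold change of FPKM + 1 for ES against DMSO (vertical axis) for each gene tested of the lists raised or lowered by MYC, in FDX1-OE and control cells, with filled points for called genes, solid lines for list medians and dashed lines for the median of all genes. The genes raised by MYC center on -0.54 in FDX1-OE cells and on -0.19 in control cells.

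Of the 3 listed targets of MLX with MondoA, TXNIP and ARRDC4 were higher in FDX1-OE ES than in FDX1-OE DMSO in all alternatives run, and KLF10 in few of them. TXNIP, the arrestin-family inhibitor of glucose uptake whose gene is the best known MondoA target, had 25.2 and 27.0 FPKM in FDX1-OE ES, 9.15 and 10.7 FPKM in control ES, 6.08 and 5.69 FPKM in FDX1-OE DMSO, and 6.46 and 6.76 FPKM in control DMSO. FDX1-OE ES was highest, control ES next and the DMSO groups lowest, with no overlap between these levels. The log2 fold change between FDX1-OE ES and FDX1-OE DMSO was 1.98, and that between control ES and control DMSO was 0.52 (adjusted p 0.0199). The TXNIP call in control cells was lost in 5 of 17 alternatives. Among these were quantile normalisation (0.39, limma, adjusted p 0.0638) and no filter on low values (adjusted p 0.0830). ARRDC4, a relative of TXNIP, had 2.42 and 2.74 FPKM in FDX1-OE ES, against 0.909 and 1.13 FPKM in FDX1-OE DMSO, a log2 fold change of 0.83. In control cells ARRDC4 was not called, at -0.06 (adjusted p 0.767). KLF10 had 13.6 and 14.9 FPKM in FDX1-OE ES, 9.24 and 8.71 FPKM in control ES, 12.4 and 11.6 FPKM in FDX1-OE DMSO, and 12.1 and 11.4 FPKM in control DMSO. Its log2 fold change in FDX1-OE cells was 0.23 (adjusted p 0.0418), below the 0.25 of the median gene. That call was lost in 13 of 17 alternatives, where the fold change ran from -0.0434 under median-ratio scaling to 0.36 and the adjusted p from 0.00544 to 0.825. In control cells KLF10 was lower, at -0.35 (adjusted p 0.0399), a call lost in 8 of 17 alternatives (adjusted p 0.0107 to 0.240). All 3 were called higher in FDX1-OE ES than in control ES and in the interaction, and none was called in DMSO. Of all genes, 31.1% were higher in FDX1-OE ES than in control ES and 13.9% in the interaction. Between FDX1-OE ES and FDX1-OE DMSO 47.1% of all genes were higher. Between control ES and control DMSO 6.74% were higher and 1% lower. In control cells at most 1 of the 3 targets was called without any 1 of the control or FDX1-OE DMSO libraries, and the interaction count was 1 without replicate 1 of control DMSO or of FDX1-OE DMSO and under quantile normalisation. MLXIP, the gene for MondoA, measured 7.62 ± 1.07 FPKM in FDX1-OE ES and 6.83 ± 0.107 FPKM in FDX1-OE DMSO (SD, n = 2), and its log2 fold change of 0.13 was not called.

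Other E-box factors of the same protein class were divided into those at a testable level and those near 0. MYCN and MLXIPL were listed at 0 in all 8 libraries, MITF did not exceed 0.0621 FPKM, and MYCL lay between 0.744 and 1.18 FPKM in FDX1-OE ES and between 0.216 and 0.49986 FPKM in the other groups. Of the 5 tested, 3 were higher in FDX1-OE ES than in FDX1-OE DMSO, none lower, with a median of 0.24, close to the 47.1% higher and the median of 0.25 over all genes. TFE3, a lysosomal and stress regulator, averaged 19.0 ± 3.47 FPKM in FDX1-OE ES and 8.72 ± 0.471 FPKM in FDX1-OE DMSO, a log2 fold change of 1.03. USF1 (0.47) and TFEB (0.24) also rose. Between FDX1-OE ES and control ES 2 were higher, beside 31.1% of all genes, and in the interaction 1 was, beside 13.9%.

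Of 14 MYC coactivators tested, 7 were higher and 3 lower in FDX1-OE ES than in FDX1-OE DMSO, near the 47.1% and 13.7% of all genes, with a median of 0.15 beside 0.25 for all genes. RUVBL2 averaged 74.0 ± 2.43 FPKM in FDX1-OE ES and 130.5 ± 7.42 FPKM in FDX1-OE DMSO, and RUVBL1 averaged 58.0 ± 3.23 FPKM in FDX1-OE ES and 87.7 ± 0.508 FPKM in FDX1-OE DMSO. These paired ATPases of chromatin-remodelling complexes fell by 0.81 and 0.59 on the log2 scale. KAT5 (0.70), the acetyltransferase of one of those complexes, and HCFC1 (0.45), a MYC-bound scaffold, rose. Against control ES, 5 coactivators were higher and 2 lower, and in the interaction 3 were higher and 2 lower. The shares of all genes were 31.1% and 10.4% against control ES, and 13.9% and 5.06% in the interaction.

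On the repressing side, 9 of 13 SIN3 and NCOR corepressor genes were higher and 1 lower in FDX1-OE ES than in FDX1-OE DMSO, with a median of 0.31. NCOR1 averaged 41.0 ± 0.983 FPKM in FDX1-OE ES and 24.1 ± 2.58 FPKM in FDX1-OE DMSO, a log2 fold change of 0.75. ARID4B (0.65), RBBP4 (0.38) and SAP18 (0.26), subunits of deacetylase complexes, also rose. Of 11 genes of the Polycomb complex that holds MGA, 7 were higher and 2 lower, with a median of 0.33. L3MBTL2, its methyl-lysine reader, averaged 18.9 ± 1.79 FPKM in FDX1-OE ES and 27.6 ± 2.37 FPKM in FDX1-OE DMSO and fell by 0.52, while PCGF6 (0.43), TFDP2 (0.94) and CBX1 (0.33) rose. Both medians lay above the 0.25 of all genes, of which 47.1% were higher and 13.7% lower. The difference of the lists from all genes was not tested. Against control ES, the corepressor list had 3 higher and 1 lower and the Polycomb list 5 higher and 1 lower. Among all genes 31.1% were higher and 10.4% lower there. In the interaction 2 corepressor genes were higher and no Polycomb gene was called, beside 13.9% higher and 5.06% lower among all genes.

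Genes for the turnover of MYC protein had 7 of 15 higher and 1 lower in FDX1-OE ES than in FDX1-OE DMSO, near the 47.1% and 13.7% of all genes, with a median of 0.15. GSK3B, a kinase that marks MYC for degradation, averaged 9.22 ± 0.590 FPKM in FDX1-OE ES and 5.76 ± 0.235 FPKM in FDX1-OE DMSO, a log2 fold change of 0.60. PPP2R5A (0.52), a phosphatase subunit that acts on MYC, and USP28 (0.62), a deubiquitinase that stabilises it, rose as well. PLK1, a mitotic kinase, averaged 71.0 ± 0.875 FPKM in FDX1-OE ES and 121.8 ± 14.9 FPKM in FDX1-OE DMSO and fell by 0.77. Against control ES, 5 were higher and 2 lower, beside 31.1% and 10.4% of all genes. In the interaction 3 were higher, beside 13.9% of all genes. No gene of the coactivator, corepressor, Polycomb, turnover or other E-box lists was called in control ES against control DMSO, and none in DMSO. The shares of all genes called were 7.74% and 0.00829%.

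For MYC and the other members called between FDX1-OE ES and FDX1-OE DMSO, which leaves out MXI1 and MNT, the genes nearest in pattern were sought by the root mean square difference of log2 values, centred on each gene, over the 8 libraries. For MYC they were MT-CO3 (0.0693), MT-RNR2 (0.0909) and MT-TS1 (0.104), all encoded by the mitochondrial genome, set against a range of 1.57 for MYC over the libraries. The mitochondrial share of a library's FPKM given above was likewise lowest in FDX1-OE ES, and in its replicate 2. For MAX the nearest was CTNNB1 (0.0206), for MXD1 MTHFD2 (0.0264), for MXD3 HSF1 (0.0469), for MXD4 TPRA1 (0.0392), for MGA ECPAS (0.0350) and for MLX GOT2 (0.0266). These are likenesses over 8 libraries of 4 groups, with no test, and they share the scaling of the libraries.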

How the data were processed

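The authors deposited 1 table per library with 1 FPKM value (fragments scaled to gene length and library size) for each of 60592 gene rows. No header names the unit, which was read from the values, and FPKM carry no read depth. The submitters' processing notes name the hg19 build and the tools HTSeq, HISAT2 and R 3.2.0, without roles. The tool that made the FPKM, how strands were handled and the absolute depth are not given in the sources used here. The plan allowed for raw numbers of reads, and its course for normalised values was followed because the deposited values were FPKM.

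Values were used as log2(FPKM + 1), which understates the change of low genes. A gene was tested if 2 or more libraries reached 1 FPKM, which left 12063. limma 3.58.1 under R 4.3.3 was run on all 8 libraries with a mean for each of the 4 groups and a trended prior (4 residual and 4.25 prior degrees of freedom). Tests were two-sided, and calls needed an adjusted p below 0.05 (Benjamini-Hochberg, across every gene tested) in each of 5 comparisons. Lack of overlap between groups of 2 libraries is a description only, and its share over all genes was not computed. The fit was tried on simulated data with the same spread in every group and few genes changed. The real libraries differ in both respects, so that trial does not cover them. The members and the 8 gene lists were chosen with earlier results of these data known. Named from each list were up to 4 genes with the smallest p between FDX1-OE ES and FDX1-OE DMSO, and genes named beyond that were picked after their values were seen. The alternatives were another pseudocount, 2 other filters, 3 scalings, 2 other fits, the replicate number as a block, and each library left out in turn. Promoters came from RefSeq on GRCh38.p14, and exon overlaps from GENCODE 29 on GRCh38. Coordinates of the deposited genes were not used.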

Additional observations from a re-analysis of the deposited data

Results flagged for a closer look

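The effect of ES differed between FDX1-OE and control cells, by limma's interaction test, for 1 member and for all 3 listed targets of MLX. The same test called 19% of all genes tested, 13.9% higher and 5.06% lower. For MYC the ES effect was 0.82 lower in FDX1-OE cells on the log2 scale (-0.82, adjusted p 0.0493), with a log2 fold change of -1.22 in FDX1-OE cells and -0.41 in control cells. That call was lost in 10 of 16 alternatives, and with a library left out the estimate ran from -1.12 to -0.51. For TXNIP the difference was 1.46 (adjusted p 0.00106), for ARRDC4 it was 0.89 (adjusted p 0.0131) and for KLF10 it was 0.58 (adjusted p 0.0153). TXNIP kept its interaction call in all 16 alternatives, ARRDC4 lost it in 4 of 15 and KLF10 in 6 of 16. For KLF10 the log2 fold change with ES was 0.23 in FDX1-OE cells, a call lost in 13 of 17 alternatives, and -0.35 in control cells, a call lost in 8 of 17.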

How the results depend on the processing

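The 17 alternatives left MYC lower in FDX1-OE ES than in FDX1-OE DMSO in every case, while the number of members called moved with the scaling of the libraries. Between FDX1-OE ES and FDX1-OE DMSO it was 7, but 3 under median-ratio scaling and 3 under quantile normalisation. Of the 12063 genes tested, 7334, 6356 and 5720 were called in that order. Between control ES and control DMSO it was 0, but 1 with only the groups compared and 2 with library weights. Between FDX1-OE ES and control ES it was 4, but 1 with no filter, 2 under quantile normalisation, 2 with only the groups compared and 1 with library weights. In the interaction it was 1, but 0 with a pseudocount of 0.1, 0 with no filter, 2 with a filter at 5 FPKM, 2 under median-ratio scaling, 0 under quantile normalisation and 3 with equal FPKM totals. Leaving out each library in turn gave 3 to 8, 0 to 2, 1 to 5 and 0 to 2 members called in these 4 comparisons, and 0 to 0 between FDX1-OE DMSO and control DMSO. The cause of these changes was not tested.

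Signs turned for MAX (-0.0319), MXI1 (-0.11) and MNT (-0.18) under median-ratio scaling and for MXI1 (-0.38), MNT (-0.18) and MGA (-0.0473) under quantile normalisation, all between FDX1-OE ES and FDX1-OE DMSO. Under median-ratio scaling they also turned for MAX between FDX1-OE ES and control ES (-0.10) and in the interaction (-0.0127). With a library left out, MNT ran from -0.0760 to 0.24 between FDX1-OE ES and FDX1-OE DMSO, and MYC from -0.00820 to 0.0854 between FDX1-OE DMSO and control DMSO. MXD1 and MXI1 do not pass a filter at 5 FPKM. Between FDX1-OE ES and FDX1-OE DMSO the median gene moved by 0.25, and by 0.00 under median-ratio scaling, -0.01 under quantile normalisation and 0.37 with equal totals. The share of calls that were higher was 77.5%, and 48.3%, 48.7% and 86.6% in that order of scalings. It was 75.0%, and 45.0%, 49.1% and 88.8%, between FDX1-OE ES and control ES, and 73.4%, and 38.4%, 49% and 89.6%, in the interaction. Between control ES and control DMSO it was 87.0%, and 52.5% and 74.5% under the first 2. Genes called there numbered 934, but 58 with no filter, 231 under quantile normalisation, 1675 with only the groups compared, 2523 with library weights and 28 to 2242 with a library left out. They numbered 5008 between FDX1-OE ES and control ES, but 3117 with only the groups compared, 3026 with library weights and 2511 to 4903 with a library left out. They numbered 2291 in the interaction, but 1339 with no filter, 1400 under quantile normalisation, 3868 with equal totals and 539 to 3183 with a library left out. FDX1-OE DMSO and control DMSO differed in 1 gene, or 3 with no filter and 4 with library weights. Of 672 counts over the 8 gene lists under the alternatives, 517 stayed within 1.5 times.

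Same-numbered libraries showed little shared deviation (correlations across genes of -0.05 to 0.08). The labels do not say whether same-numbered samples were handled together, and these correlations cannot settle it. With the replicate number as a block, members called were 7, 0, 3, 0 and 1 in the 5 comparisons, and the 1 call lost was MGA between FDX1-OE ES and control ES (adjusted p 0.0606).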
